A study of Mus musculus with 24 samples.

Results

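The interneurons of the striatum are described here through 9 marker genes in 24 mouse striatal libraries: Sst, Npy and Nos1 for the somatostatin class, Chat, Slc5a7 and Slc18a3 for the cholinergic class, Pvalb and Pthlh for the fast-spiking class, and Th. They were the rows of the read-count table that carry these 9 gene names, out of 54532 genes in all, and all 9 passed the filter on low counts that left 19667 genes for testing. The C57BL/6 mice had 4 genotypes with 6 animals each, 3 male and 3 female: WT, deletion of Tyrobp (TyrobpKO), heterozygous Q175, and both together (Q175_TyrobpKO). Q175 mice carry a knocked-in Htt with an expanded CAG repeat, made to model Huntington's disease, and Tyrobp encodes an adaptor of microglial receptors. Each library came from the striatum of 1 hemisphere, and the age of the animals was not given in the labels. The comparisons ask what the Q175 allele did to these markers with and without Tyrobp, and what the Tyrobp deletion did to them with and without the Q175 allele.

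Most striatal neurons are GABAergic projection neurons, which carry the output of the striatum and are the cells known to suffer most in Huntington's disease. Interneurons are a small minority that stays within the striatum. The somatostatin class releases the peptides somatostatin (Sst) and neuropeptide Y (Npy) and makes nitric oxide with the neuronal synthase (Nos1). Cholinergic interneurons make acetylcholine with choline acetyltransferase (Chat), take up choline through the transporter of Slc5a7, and load acetylcholine into vesicles through the transporter of Slc18a3. Fast-spiking cells carry the calcium buffer parvalbumin (Pvalb) and the signalling peptide of Pthlh, and a sparse class carries tyrosine hydroxylase (Th), the first enzyme of catecholamine synthesis. Somatostatin, neuropeptide Y and parvalbumin also mark interneurons of the cortex, and Th also marks the midbrain dopamine neurons whose axons, but not cell bodies, lie in the striatum. In tissue RNA, fewer cells of a type and less RNA per cell cannot be told apart.

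Of the 9 genes, Sst and Th shared a sequence feature in their promoters. The cAMP response element TGACGTCA, a binding sequence of CREB family factors that reads the same on both strands, was searched in the RefSeq promoters of the 9 genes, which are 10 windows because Pvalb has a pair of starts. Each window runs from 250 bases before the start to 50 bases after it on the build GRCm38.p6. The element was found in 2 of the 10 windows and in 588 of 32851 RefSeq promoter windows of the same length (1.79%). Its first base lay 48 bases before the Sst start and 45 bases before the Th start. The 250 bases before both starts are shown 5′ to 3′ on the minus strand, with the element in capitals, because these are the members that carry it.
Sst, chr16:23890845-23891094: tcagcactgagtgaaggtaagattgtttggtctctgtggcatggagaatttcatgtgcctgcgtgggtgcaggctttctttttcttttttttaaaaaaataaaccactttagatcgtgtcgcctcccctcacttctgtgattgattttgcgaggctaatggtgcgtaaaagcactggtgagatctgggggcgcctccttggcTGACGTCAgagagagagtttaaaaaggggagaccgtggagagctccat
Th, chr7:142899996-142900245: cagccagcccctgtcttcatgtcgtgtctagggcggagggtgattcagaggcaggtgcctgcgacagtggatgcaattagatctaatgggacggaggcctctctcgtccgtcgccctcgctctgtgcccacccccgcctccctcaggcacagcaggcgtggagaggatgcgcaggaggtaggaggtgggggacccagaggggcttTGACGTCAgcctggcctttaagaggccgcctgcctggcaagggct
The half-site TGACG, searched on both strands and contained in the full element, was found in 5 of the 10 windows (Sst, Nos1, Chat, Slc18a3 and Th) and in 20.8% of all windows. These matches describe letters, not binding. Sst and Th differed in their values below: Sst was the highest of the 9 genes per length and Th the lowest.

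All 9 genes are protein coding, and their positions are given as in the deposited table, whose coordinates match the mouse build GRCm38. Slc18a3 (chromosome 14, 32462438 to 32464850) lies within the span of Chat (32408203 to 32465989) on the same strand, in the shared cholinergic gene locus, and no exonic base of one overlaps an exon of the other. Nos1 (chromosome 5, 117781032 to 117958840) has 268 exonic bases (2.4% of its exons) under the antisense gene Gm26995, which held 83 reads in all 24 libraries against 51352 for Nos1. Whether strand was used in counting was not stated, so reads from those bases cannot be assigned to one of the pair.

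Levels of different genes were compared as CPM (counts scaled to library size, with TMM factors for composition) per kilobase of gene model. Sst was highest at 203 ± 24.4 CPM per kilobase (SD, n = 24), followed by Npy at 44.2 ± 8.10 and Pvalb at 31.5 ± 12.1. Slc5a7 (7.39 ± 1.66), Nos1 (6.84 ± 0.919) and Chat (5.36 ± 1.19) came next, and Slc5a7 and Nos1 differed by less than their SDs. Pthlh (3.14 ± 0.672), Slc18a3 (3.003 ± 0.703) and Th (1.87 ± 0.466) were lowest, and Pthlh and Slc18a3 differed by less than their spread. The least read gene, Th, still had 83 to 193 reads in a library, and Sst had 3250 to 5705.

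Libraries held 25.5 to 34.6 M counts. Tyrobp had 0.341 ± 0.0926 CPM in TyrobpKO and 0.260 ± 0.0423 in Q175_TyrobpKO, and 7.88 ± 1.15 in WT and 8.68 ± 2.10 in Q175 (SD, n = 6), and Htt was lower in Q175 than in WT by −0.46 ± 0.06 on the log2 scale. Genes of striatal projection neurons summed to 5695 CPM or more in all 24 libraries. Other tissue varied between libraries: 14 genes of cortical excitatory neurons summed to between 70.1 and 1068 CPM, 15.2-fold apart, and 7 choroid plexus genes summed to 4128 CPM in Q175 replicate 3 against a median of 54.1. The animal numbers in the labels begin with letters: TyrobpKO and Q175_TyrobpKO have 1 prefix in common, while Q175 shares its prefix with WT replicate 3 only. That prefix and the Tyrobp genotype cannot be told apart, and Q175 against WT mixes the allele with the prefix for 5 of 6 WT animals.

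The level of each marker in the 4 genotypes is shown by library in the plot of 9 panels. When the 4 genotype means of each gene were put in order, 26 of the 27 steps between neighbours were smaller than the larger SD of the pair. The exception among neighbours was Slc18a3, from 8.74 ± 1.33 CPM in WT to 7.05 ± 1.48 in TyrobpKO (SD, n = 6). Sorting makes the steps between neighbours small, so this count does not describe genotypes farther apart in the order. Pthlh, for example, had 5.96 ± 1.26 CPM in WT, its highest mean, and 4.18 ± 0.879 in Q175, its lowest. The share of such steps over all genes was not computed. No marker had genotype groups that did not overlap in the 4 contrasts between single genotypes, whereas 4.49% of all tested genes had such groups in Q175_TyrobpKO against TyrobpKO, 4.08% in Q175 against WT, 0.356% in TyrobpKO against WT and 0.463% in Q175_TyrobpKO against Q175.

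**Figure D1:**
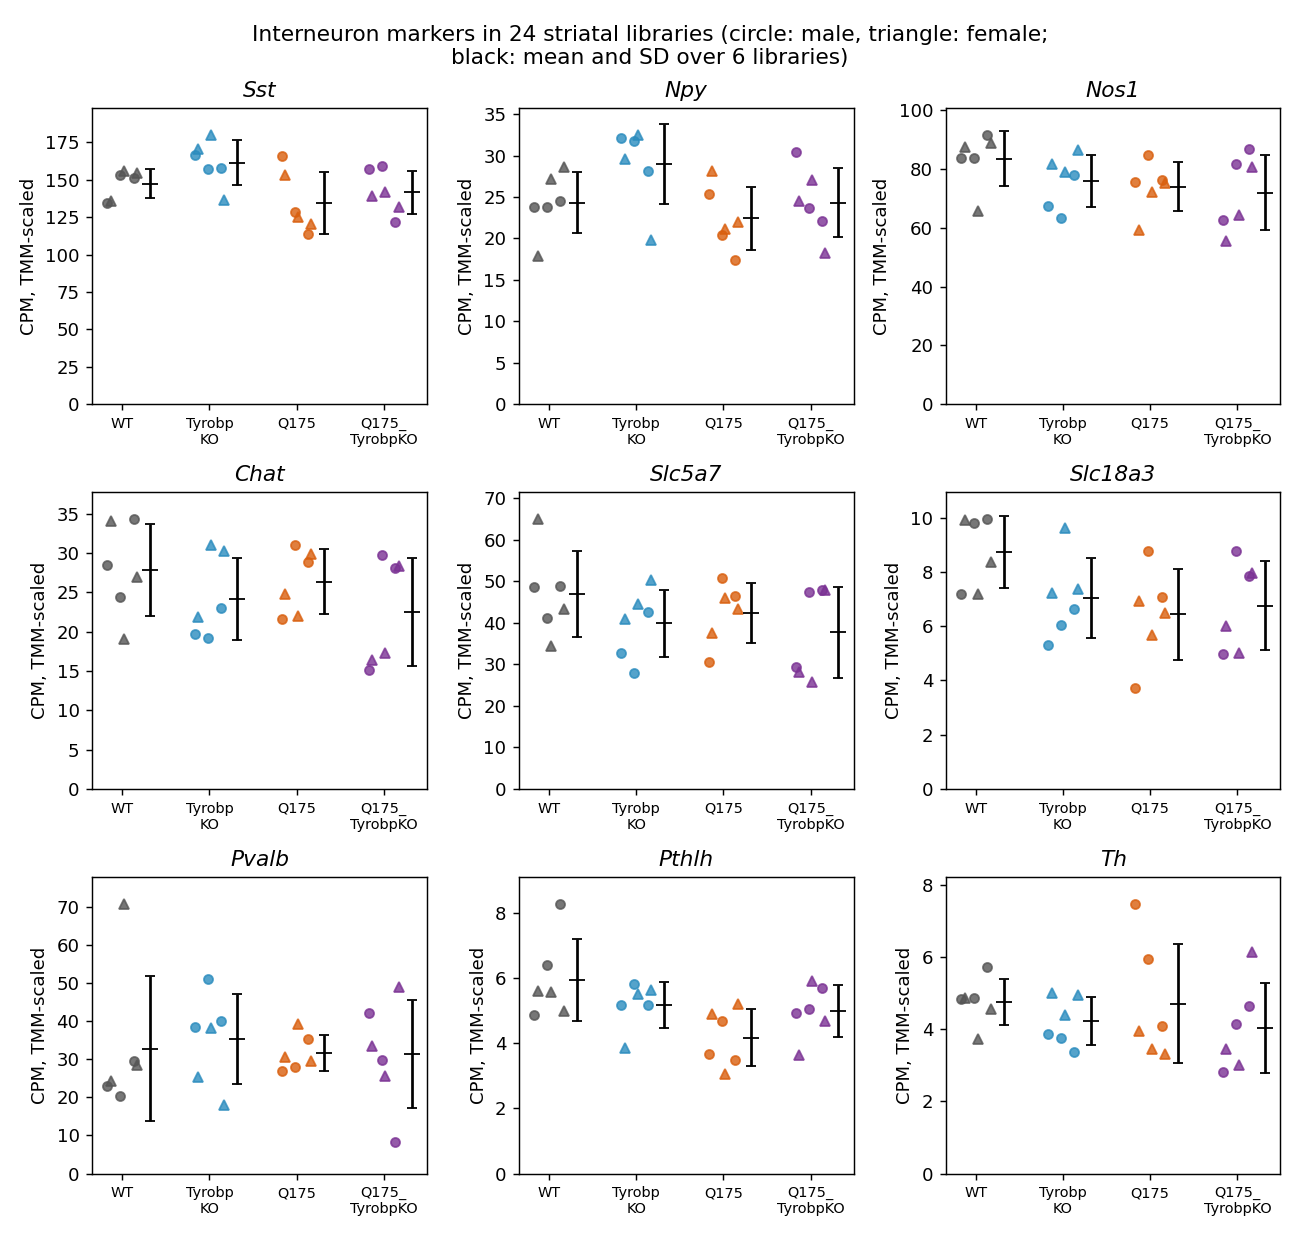
TMM-scaled CPM (vertical axis, from 0) of the 9 interneuron markers in each library of the 4 genotypes (horizontal axis), with circles for males, triangles for females, and the mean ± SD of 6 libraries in black. The genotype ranges overlap for all 9 genes; Pthlh in Q175 has the lowest mean of that gene, at 4.18 CPM, and 1 WT library stands at 70.8 CPM for Pvalb.

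In the somatostatin class, Sst and Npy were lower with the Q175 allele in both Tyrobp backgrounds, by amounts that did not pass the test. Sst had 134, 152 and 156 CPM (lowest, median and highest of 6) in WT, against 114, 127 and 166 CPM in Q175. TyrobpKO had 137, 162 and 180.2 CPM of Sst, against 122, 140.3 and 159 CPM in Q175_TyrobpKO. In Q175, 4 of 6 libraries lay below the lowest WT library while the highest lay above every WT library, and in Q175_TyrobpKO all 6 lay below the TyrobpKO mean of 161 CPM. The log2 difference was −0.19 ± 0.08 (SE) in Q175_TyrobpKO against TyrobpKO and −0.13 ± 0.08 in Q175 against WT, with adjusted p = 0.215 and 0.365 in edgeR's quasi-likelihood test. Over the 12 carriers against the 12 non-carriers of the Q175 allele, Sst differed by −0.16 ± 0.06 (95% interval −0.28 to −0.05), a level 10.6% lower, with an edgeR adjusted p of 0.0591 that missed the threshold of 0.05. DESeq2 (adjusted p = 0.0450), limma-voom (0.0491) and upper-quartile scaling in edgeR (0.0448) placed the same difference just past it.

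Npy had 17.9, 24.2 and 28.6 CPM in WT, 17.4, 21.6 and 28.1 in Q175, 19.8, 30.7 and 32.5 in TyrobpKO, and 18.2, 24.1 and 30.4 in Q175_TyrobpKO (lowest, median, highest). TyrobpKO had the highest Npy median, with 4 of its 6 libraries above the highest WT library. The carrier difference of Npy was −0.19 ± 0.10 (edgeR adjusted p = 0.201), and its difference in TyrobpKO against WT was 0.25 ± 0.13 (edgeR adjusted p = 0.749).

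Nos1 had 65.7, 85.5 and 91.6 CPM in WT, 59.3, 75.3 and 84.8 in Q175, 63.3, 78.5 and 86.3 in TyrobpKO, and 55.5, 72.6 and 86.8 in Q175_TyrobpKO. The WT group was highest and all groups overlapped widely. Nos1 differed by −0.18 ± 0.11 in Q175 against WT, −0.08 ± 0.11 in Q175_TyrobpKO against TyrobpKO and −0.13 ± 0.07 in carriers (edgeR adjusted p = 0.342, 0.751 and 0.260).

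Among the cholinergic genes, Slc18a3 had the largest difference in Q175 against WT, and none of the 3 passed the test there. Slc18a3 had 7.20, 9.08 and 9.95 CPM in WT, 3.72, 6.71 and 8.77 in Q175, 5.31, 6.95 and 9.62 in TyrobpKO, and 4.98, 6.91 and 8.78 in Q175_TyrobpKO. In Q175, 5 of 6 libraries lay below the lowest WT library, and the groups still overlapped. The log2 difference was −0.44 ± 0.18 in Q175 against WT, 26.1% lower, with an edgeR adjusted p of 0.123. Without Q175 replicate 2 that difference passed the test (−0.56, adjusted p = 0.0478). It was −0.06 ± 0.18 in Q175_TyrobpKO against TyrobpKO and −0.25 ± 0.12 in carriers (edgeR adjusted p = 0.911 and 0.188).

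Chat had 19.0, 27.7 and 34.3 CPM in WT, 21.5, 26.8 and 31.0 in Q175, 19.2, 22.4 and 31.0 in TyrobpKO, and 15.1, 22.7 and 29.7 in Q175_TyrobpKO. Slc5a7 had 34.4, 45.9 and 64.9 CPM in WT, 30.6, 44.6 and 50.7 in Q175, 27.8, 41.8 and 50.2 in TyrobpKO, and 25.8, 38.4 and 47.9 in Q175_TyrobpKO. For both genes, 3 Q175_TyrobpKO libraries lay below every Q175 library and the other 3 lay in the upper part of the range. The carrier difference was −0.09 ± 0.13 for Chat (95% interval −0.36 to 0.17) and −0.11 ± 0.14 for Slc5a7 (−0.37 to 0.16), with edgeR adjusted p of 0.714 and 0.656. In Q175 against WT the intervals were −0.45 to 0.29 for Chat and −0.52 to 0.23 for Slc5a7, and both hold the −0.44 of Slc18a3 in that contrast as well as 0.

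In the fast-spiking class, Pthlh was the single marker that passed the test in any comparison. Pthlh had 4.88, 5.60 and 8.29 CPM in WT, 3.06, 4.19 and 5.21 in Q175, 3.84, 5.35 and 5.81 in TyrobpKO, and 3.65, 5.001 and 5.92 in Q175_TyrobpKO. All 6 Q175 libraries lay below the WT mean of 5.96 CPM and 4 of them below the lowest WT library. It fell by 0.50 ± 0.15 on the log2 scale in Q175 against WT, 29.5% lower, with an edgeR adjusted p of 0.0337. In Q175_TyrobpKO against TyrobpKO it differed by −0.06 ± 0.15 (edgeR adjusted p = 0.893), and in carriers by −0.28 ± 0.11 (0.0719). The difference between both Q175 effects was 0.45 ± 0.22 (unadjusted p = 0.0476, adjusted p = 0.999 in edgeR), and Q175_TyrobpKO stood 0.25 ± 0.15 above Q175 (adjusted p = 0.849). The Pthlh call ended when any 1 of 6 libraries was left out: WT replicate 2 (adjusted p = 0.0696), 3 (0.118) or 4 (0.0571), or Q175 replicate 1 (0.0726), 3 (0.0830) or 5 (0.0862). Q175 replicate 3 was also the library with the most choroid plexus RNA, and without it Pthlh differed by −0.44 ± 0.16. The call also ended in a fit of the 12 WT and Q175 libraries alone (−0.51 ± 0.17, edgeR adjusted p = 0.0849), in males alone (−0.72 ± 0.20, 0.0564) and in females alone (−0.29 ± 0.23, 0.673).

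Pvalb was the most variable of the 9 genes, from 8.21 to 70.8 CPM over the 24 libraries, 8.62-fold apart. It had 20.5, 26.5 and 70.8 CPM in WT, 27.0, 30.0 and 39.3 in Q175, 17.9, 38.4 and 51.1 in TyrobpKO, and 8.21, 31.6 and 49.1 in Q175_TyrobpKO. WT replicate 5 held the highest value and Q175_TyrobpKO replicate 3 the lowest. The difference in Q175 against WT was −0.04 ± 0.35, and its sign turned without WT replicate 5 (0.33) and it was 7.31e-05 without Q175 replicate 6. Its 95% interval of −0.72 to 0.65 holds a difference as large as that of Pthlh, so one of that size was not detectable for Pvalb.

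Th had 3.74, 4.85 and 5.73 CPM in WT, 3.32, 4.02 and 7.48 in Q175, 3.36, 4.14 and 4.9998 in TyrobpKO, and 2.81, 3.80 and 6.14 in Q175_TyrobpKO. Q175 reached both below and above the WT range, with 2 libraries on each side. The carrier difference was −0.05 ± 0.14 (edgeR adjusted p = 0.854). Of the defining genes of midbrain dopamine neurons, Foxa2 had 0 reads in all libraries, and the genotype means of Slc6a3, Pitx3 and En1 were 0.189 CPM or less. The other 3 of the 7 listed genes passed the filter: Nr4a2 had 17.7 to 28.1 CPM and En2 2.79 to 3.54 CPM as genotype means, and Lmx1b, at 0.0374 CPM in WT and 0.139 in TyrobpKO, had 1.40 in Q175 and 1.79 in Q175_TyrobpKO. The 7 genes summed to 5.20 to 42.7 CPM in WT, 22.9 to 54.8 in TyrobpKO, 12.02 to 54.2 in Q175 and 10.4 to 49.1 in Q175_TyrobpKO. Nr4a2 made up most of these sums. The lowest was in WT replicate 4 and the highest in TyrobpKO replicate 2, whose cortical excitatory genes summed to 80.5 and 1068 CPM. Whether the sums reflect midbrain RNA, and their part in the Th values, was not tested.

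Counted over the 9 markers, 1 was called in Q175 against WT (Pthlh, lower), while 9.63% of the 19667 genes were called there and 5.47% were called lower. None of the 9 was called in Q175_TyrobpKO against TyrobpKO, where 5.86% of genes were called. At an unadjusted p under 0.05 the counts were 2 (Slc18a3 and Pthlh) and 1 (Sst), beside 22.6% and 18.4% of genes. All 9 differences had a negative sign in each of these contrasts, which share no library, as did 48.5% and 50.4% of all genes. Medians were −0.13 and −0.08 over the markers and 0.01 and −0.00 over all genes. The 9 signs are not independent, since some markers varied together across libraries. Pvalb and Th turned sign in Q175 against WT without 1 library or in males alone. In Q175_TyrobpKO against TyrobpKO, Slc5a7, Slc18a3, Pvalb, Pthlh and Th turned without 1 library, and Nos1 and Chat in males alone. None of the 9 was called in carriers against non-carriers, where 18% of genes were called and 29.7% had an unadjusted p under 0.05. There, Sst and Pthlh had an unadjusted p under 0.05 in edgeR, DESeq2 called 1 marker and limma-voom called 1, Sst in both. Leaving out 1 library gave 0 to 2 called markers in Q175 against WT and 0 to 2 in carriers: Sst passed in carriers without any 1 of 5 libraries (replicates 1 and 4 of Q175, 1 and 2 of Q175_TyrobpKO, and 6 of TyrobpKO), with edgeR adjusted p from 0.0127 to 0.0440. Pthlh passed there without any 1 of 4 (replicates 4 and 6 of Q175, 4 of TyrobpKO, and 5 of Q175_TyrobpKO), with edgeR adjusted p from 0.0375 to 0.0489.

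Genes of the projection neurons fell in the same libraries. Of 15 projection neuron genes, 12 were called lower in Q175 against WT, with a median of −0.70 and a negative sign in 15. In Q175_TyrobpKO against TyrobpKO 6 were called lower, with a median of −0.45 and a negative sign in 14, where 3.08% of all genes were called lower. In carriers, Penk, the enkephalin precursor of indirect pathway cells, fell by 1.01 ± 0.11 in log2 units, and Drd1, the dopamine receptor of direct pathway cells, fell by 0.61 ± 0.10 (edgeR adjusted p = 9.48e-07 and 0.000214). The lower bound of the Sst interval in carriers, −0.28, lay above both estimates, and Sst had the narrowest interval of the 9 markers. That bound was −0.49 for Slc18a3, −0.49 for Pthlh and −0.60 for Pvalb, near the estimate of Drd1. Of the 15 projection neuron genes, 12 were called lower in carriers, beside 9.17% of all genes, and 14 had a negative sign. The plot of log2 fold changes sets the 9 markers beside 6 of these genes. Medians of both lists are descriptions, and no test compared the lists.

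**Figure D2:**
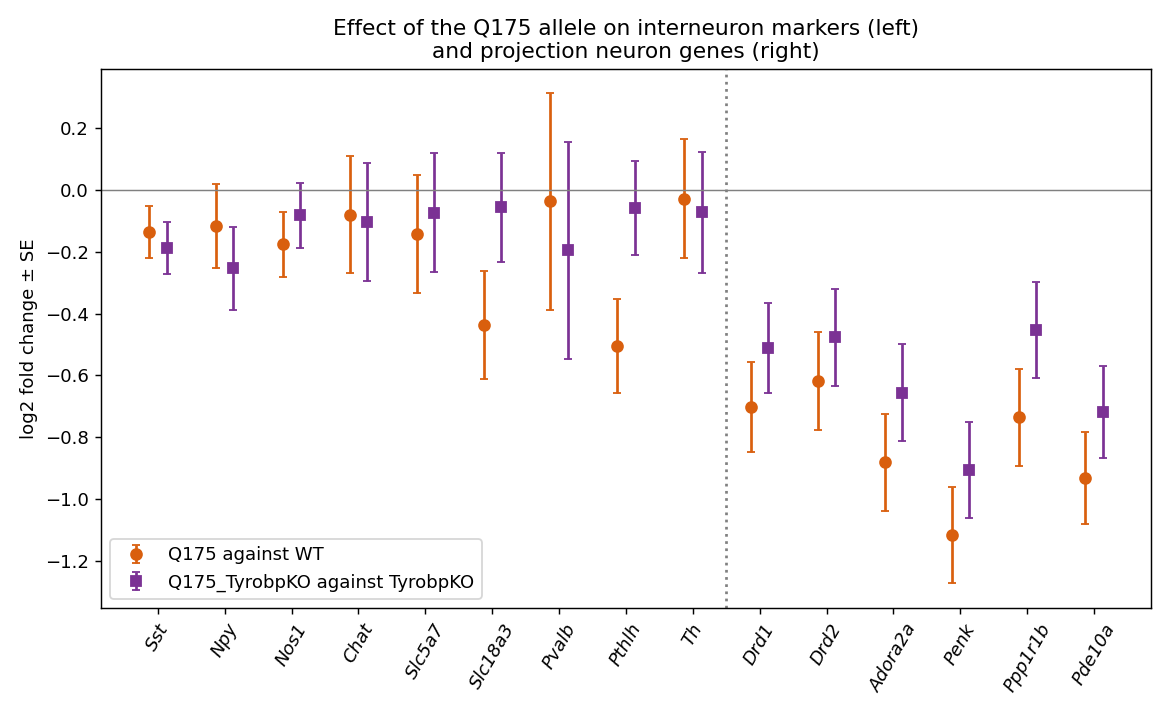
Log2 fold change ± SE (vertical axis) of the 9 interneuron markers and of 6 projection neuron genes (horizontal axis) in Q175 against WT (orange circles) and, in purple squares, Q175_TyrobpKO against TyrobpKO, 6 libraries a group. The markers other than Slc18a3 and Pthlh lie between −0.25 and −0.03 in both contrasts, and the projection neuron genes shown lie lower, down to −1.12 for Penk.

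The Tyrobp deletion moved none of the 9 markers past the test. The counts were 0 in TyrobpKO against WT (0.117% of genes called), 0 in Q175_TyrobpKO against Q175 (0.158%), and 0 over both backgrounds together (0.208%). No marker had an unadjusted p under 0.05 in these 3 comparisons in edgeR, where 6.45%, 6.04% and 8.89% of genes had one, and DESeq2 and limma-voom called 0. In TyrobpKO against WT the markers ranged from −0.31 ± 0.18 for Slc18a3 to 0.25 ± 0.13 for Npy, and Sst differed by 0.13 ± 0.08, with 5 of 6 TyrobpKO libraries above the highest WT library. TyrobpKO was also the genotype with the highest cortical sums, 484 to 1068 CPM against 80.5 to 811 in WT, and with the cortical genes as a term Sst differed by 0.05 ± 0.07 and Npy by 0.10 ± 0.09. For the interaction of Q175 and the deletion, 0 of the 9 and 0% of all genes were called in edgeR (2 genes in DESeq2, none of them a marker), and 1 marker (Pthlh) and 3.59% of genes had an unadjusted p under 0.05. Slc18a3 had an interaction of 0.38 ± 0.25 (unadjusted p = 0.138 in edgeR).

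Females and males did not differ past the test for any marker (0 of 9, with 0.0814% of genes called, and 0 of 9 and 4.05% of genes at an unadjusted p under 0.05), and the 9 differences lay between −0.11 and 0.17. The Q175 effect in females minus that in males was also called for 0 of 9 markers and 0% of genes, with 0 of 9 and 3.02% at an unadjusted p under 0.05. Nos1 had the smallest p of the 9: it differed by −0.26 ± 0.10 in female carriers and 0.01 ± 0.10 in male carriers, a difference of −0.27 ± 0.14 (unadjusted p = 0.0574, adjusted p = 0.998 in edgeR). With 3 animals per sex and genotype, a difference of this size did not pass.

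Genes of 1 class were then followed across the 24 libraries, on log2(CPM + 0.5), over 7 pairs. The 3 cholinergic genes varied together: Pearson r was 0.897 for Chat and Slc5a7 (Spearman 0.895), 0.735 for Chat and Slc18a3 (0.765) and 0.740 for Slc5a7 and Slc18a3 (0.722), each with an adjusted permutation p of 0.000227 or less. Within the 4 genotypes of 6 libraries, the 12 Pearson values lay between 0.524 and 0.960. In the somatostatin class, Nos1 stood apart from the peptides. Sst and Npy had r = 0.817 (Spearman 0.817, adjusted permutation p = 3.5e-05) and 0.618 to 0.873 within genotypes, whereas Nos1 had r = −0.153 with Sst (Spearman −0.179, adjusted permutation p = 0.473) and −0.424 with Npy (Spearman −0.383, adjusted permutation p = 0.0554). As deviations from the genotype means, Npy and Nos1 had r = −0.569 (adjusted permutation p = 0.00557). Pvalb and Pthlh had r = −0.164 (Spearman −0.228, adjusted permutation p = 0.473). Leaving out the 2 libraries farthest from the median kept every pair on its side of the threshold.

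The markers split by their relation to the genes of cortical excitatory neurons in the same library. These 9 relations were chosen after the values were seen. Against the mean log2(CPM + 0.5) of the 14 cortical genes, Npy had r = 0.828 (Spearman 0.797) and Sst r = 0.667 (0.694), while Slc5a7 had r = −0.774 (−0.869), Chat −0.762 (−0.824), Nos1 −0.581 (−0.647) and Slc18a3 −0.569 (−0.645). Adjusted permutation p over the 9 relations was 0.00544 or less for each of these 6. Their signs were the same within each of the 4 genotypes by Pearson r, and Sst in TyrobpKO was the weakest at 0.229. By Spearman that value was −0.086, the reverse sign. Pvalb (r = 0.226, Spearman 0.349, adjusted permutation p = 0.326), Pthlh (−0.011, Spearman 0.052, 0.961) and Th (−0.413, Spearman −0.436, 0.0560) did not pass by Pearson r, and Th passed by Spearman (adjusted permutation p = 0.0446). Without the 2 libraries farthest from the cortical median, the 6 relations held, with r between 0.579 and 0.753 for Sst and Npy and between −0.838 and −0.656 for the other 4, and Pvalb reached 0.477 (adjusted permutation p = 0.0347). Q175_TyrobpKO replicate 6, with the lowest cortical mean, had 18.2 CPM of Npy and 28.3 CPM of Chat, and TyrobpKO replicate 2, with the highest, had 31.8 CPM of Npy and 19.2 CPM of Chat.

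**Figure D3:**
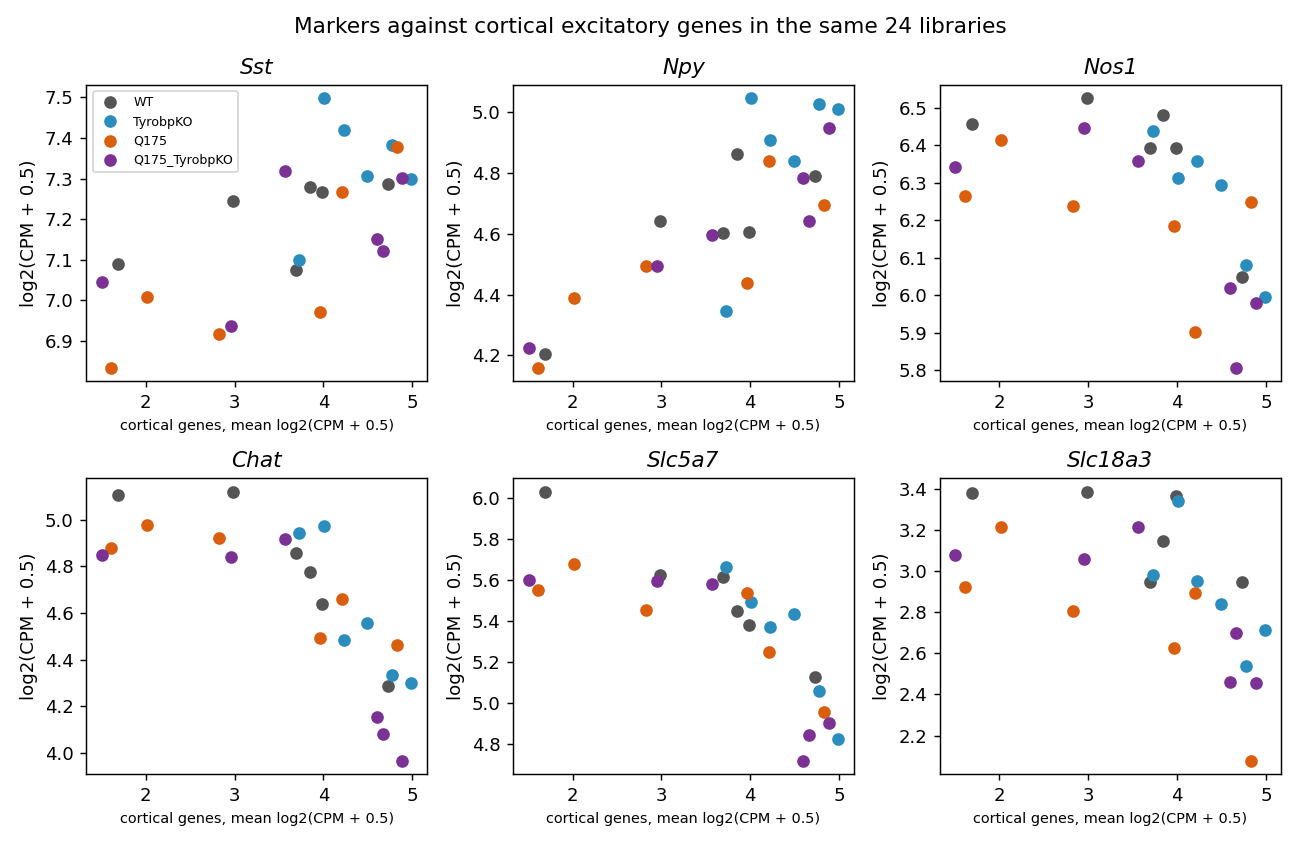
Log2(CPM + 0.5) of 6 markers (vertical axes) against the mean log2(CPM + 0.5) of 14 cortical excitatory genes (horizontal axes), 1 point per library, coloured by genotype. Sst and Npy are higher to the right (r = 0.667 and 0.828) and Nos1, Chat, Slc5a7 and Slc18a3 lower (r = −0.581, −0.762, −0.774 and −0.569). The TyrobpKO libraries lie between 3.73 and 4.99 on the horizontal axis, and the other 3 genotypes start between 1.51 and 1.69.

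Cortical sums had a median of 736 CPM in TyrobpKO, 604 in Q175_TyrobpKO, 494 in WT and 345 in Q175, with wide overlap. A fit with the cortical mean as a further term kept the negative sign of all 9 markers in carriers and lowered the errors of the related genes. Slc18a3 then differed by −0.36 ± 0.10, Slc5a7 by −0.23 ± 0.07 and Nos1 by −0.19 ± 0.05 (edgeR adjusted p = 0.00680, 0.0286 and 0.0126), so 3 of 9 markers were called in place of 0, while the share of all genes called in carriers was 21.7% with the term and 18% without it. Chat had −0.21 ± 0.08 (0.0507), Pthlh −0.29 ± 0.11 (0.0519), Sst −0.13 ± 0.05 (0.0640) and Npy −0.11 ± 0.06 (0.234). The genes with a negative relation to the cortical mean had larger carrier differences with the term, and Sst and Npy smaller ones. In Q175 against WT, Slc18a3 (−0.51 ± 0.13, adjusted p = 0.00873) joined Pthlh (−0.51 ± 0.15, 0.0213), where 13.6% of all genes were called with the term and 9.63% without it. The plot with and without the term shows all 9.

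**Figure D4:**
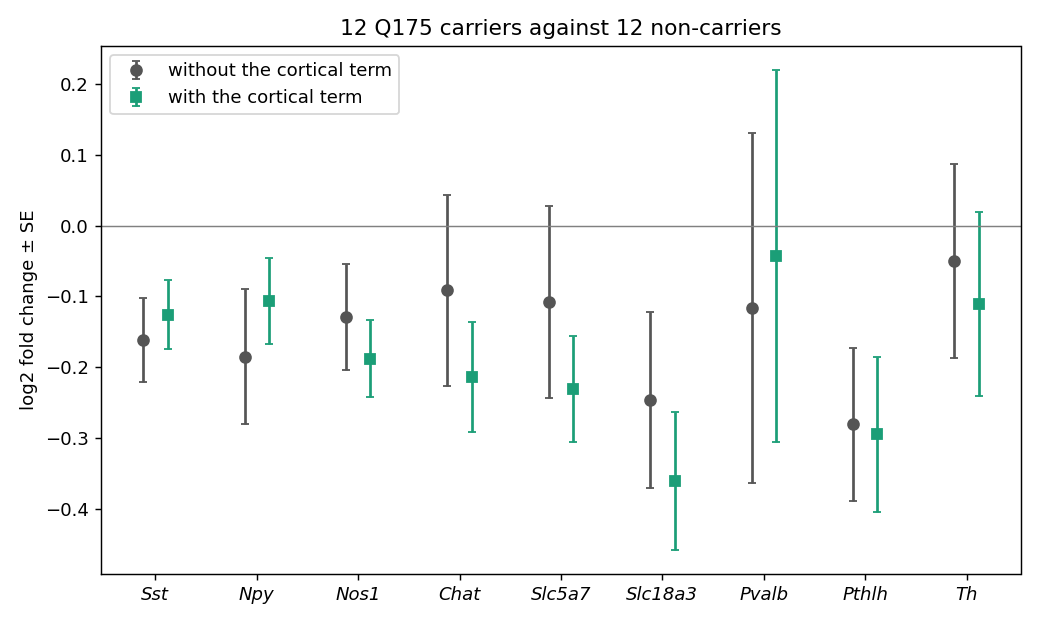
Log2 fold change ± SE (vertical axis) of the 9 markers (horizontal axis) in 12 carriers against 12 non-carriers of the Q175 allele, without (grey circles) and with (green squares) a term for the cortical genes. The bars shrink for Nos1, Chat, Slc5a7 and Slc18a3, whose values move down, to −0.19, −0.21, −0.23 and −0.36.

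Companion genes of each class were read from lists. Of the 6 somatostatin class companions, 0 were called in carriers. The substance P receptor Tacr1 differed by −0.19 ± 0.13 and cortistatin (Cort) by −0.58 ± 0.43. Of 9 cholinergic companions, 1 was called: the neurotrophin receptor Ngfr fell by 0.55 ± 0.14 in log2 units (edgeR adjusted p = 0.00592). Isl1, a transcription factor of cholinergic neurons, differed by 0.26 ± 0.12 (0.153). Of 6 fast-spiking companions, all had a negative sign in carriers (median −0.18) and 2 were called lower: the synaptic vesicle protein gene Syt2 fell by 0.50 ± 0.11 (adjusted p = 0.00354) and the receptor gene Kit fell by 0.22 ± 0.06 (0.00659). Syt2 was also called in Q175 against WT (−0.51 ± 0.16, edgeR adjusted p = 0.0484), as Pthlh was. With the cortical genes as a term, Syt2 missed the threshold in that contrast (−0.49 ± 0.17, edgeR adjusted p = 0.0577). The median of the fast-spiking companions in carriers was then −0.08. These counts stand beside 9.17% of all genes called lower and 8.85% called higher in carriers. With the cortical genes as a term, the numbers called lower were 1 of 6 somatostatin class, 3 of 9 cholinergic and 2 of 6 fast-spiking companions, 2 of 8 genes of other interneuron classes and 0 of 11 transcription factors, beside 11.3% of all genes. Genes called only with the term, named here after their values were seen, include Tacr1 (−0.31 ± 0.07), Slc17a8, a glutamate transporter of cholinergic interneurons (−0.20 ± 0.07), and, from other interneuron classes, Vip (−0.41 ± 0.14) and Reln (−0.30 ± 0.08). Others on these lists had a positive sign with the term and did not pass, such as Gbx2 (0.57 ± 0.28), Calb2 (0.47 ± 0.26) and Isl1 (0.14 ± 0.07).

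The next counts stand beside 18% of all genes called in carriers, and 1 of 7 is near that share. Of 7 tested genes of catecholamine synthesis and handling beside Th, 1 was called in carriers: Pnmt, the enzyme that makes adrenaline, rose by 1.11 ± 0.25 in log2 units (edgeR adjusted p = 0.00199), and the monoamine oxidase Maoa differed by 0.12 ± 0.04 (0.0554). None of 8 genes of other interneuron classes was called, with 0.42 ± 0.25 for calretinin (Calb2) and −0.20 ± 0.12 for Reln. None of 11 interneuron transcription factors was called, with −0.20 ± 0.10 for Maf and −0.13 ± 0.06 for Sox6, and none of 4 genes of GABA synthesis and transport, with 0.14 ± 0.07 for the vesicular transporter Slc32a1. None of 5 nitric oxide targets was called, with 0.07 ± 0.06 for Gucy1b1 and 0.08 ± 0.09 for Gucy1a1, subunits of the guanylate cyclase that nitric oxide activates. Besides Pnmt and Maoa, Slc32a1 had an unadjusted p under 0.05 (0.0465 in edgeR), as did 29.7% of all genes.

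Of 20 tested receptor genes of the interneuron messengers, 5 were called lower and 2 higher in carriers, beside 9.17% of all genes called lower and 8.85% called higher. The 2 higher are near that share, and 16 of the 20 had a negative sign. The muscarinic receptor Chrm4, which projection neurons of the direct pathway carry, fell by 0.64 ± 0.09 in log2 units (edgeR adjusted p = 9.82e-06), and Chrm1 fell by 0.14 ± 0.04 (0.0150). The nicotinic subunits Chrna7 and Chrna5 fell by 0.38 ± 0.07 and 0.95 ± 0.28 (adjusted p = 0.000142 and 0.0193), while Chrnb2 and Chrnb4 rose by 0.22 ± 0.04 and 1.103 ± 0.28 (7.82e-05 and 0.00635). The somatostatin receptor Sstr4, outside the naming rule, fell by 0.40 ± 0.12 (0.0222). No test compared the receptors with the 9 markers.

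Genes of other tissue were listed as a check, beside 18% of all genes called in carriers, 8.85% higher and 9.17% lower. Of 14 cortical genes 0 were called in carriers, with 0.31 ± 0.20 for Cux2 and −0.24 ± 0.17 for Rorb. A negative sign was found in 10 of the 14 (median −0.28) and in 49.1% of all genes. All 7 choroid plexus genes were called higher in carriers. Their sums ran from 36.7 to 4128 CPM in Q175 and from 42.4 to 588 in Q175_TyrobpKO, against at most 74.8 in WT and 132 in TyrobpKO. In Q175 against WT 2 of the 7 were called and in Q175_TyrobpKO against TyrobpKO 0, beside 9.63% and 5.86% of all genes. With the cortical term 2 were called in carriers, beside 21.7% of all genes. Of 9 genes of thalamus, septum and pallidum, Shox2 rose by 4.61 ± 0.43 and Synpo2 fell by 0.33 ± 0.11 on the log2 scale. Of 3 tested midbrain genes, En2 differed by 0.32 ± 0.13 (edgeR adjusted p = 0.0907). Lmx1b was higher in carriers, but it had almost no reads in non-carriers and passed the filter through the carriers, so its fold is not given. Apart from the fits without Q175 replicate 3, the part of choroid plexus RNA in the marker values was not tested.

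For 4 markers the genes with the most similar pattern over the 24 libraries were taken from 19658 other tested genes by Pearson r of log2(CPM + 0.5). These are descriptions, since the libraries share depth scaling and tissue makeup. Chat ran closest to Necab2 (0.919), Meis2 (0.908) and Dlx6 (0.905). Pvalb ran closest to Nefh (0.898), a neurofilament gene, Vamp1 (0.888), a synaptic vesicle gene, and Esrrb (0.855). Sst ran closest to Myh1 (0.855), St3gal5 (0.820) and Rala (0.818), and Th to Zbtb43 (0.791), Gm38331 (0.786) and Hoga1 (0.708). Mean levels of Myh1, Gm38331 and Hoga1 were only 0.451, 0.571 and 0.766 CPM, close to the 0.5 CPM added before the log. The closest genes of Th had lower r than those of Chat and Pvalb.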

How the data were processed

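Per the labels' protocols, striatum of 1 hemisphere was flash frozen, RNA was extracted with Trizol and sequenced on a NovaSeq instrument. The authors deposited raw read counts per gene for 24 libraries. The submitters' processing notes name STAR, featureCounts and DESeq2, without versions, and the build GRCh38, a human build. The deposited identifiers are mouse: 54409 of 54532 were found in GENCODE M21 (GRCm38), 98.3% of them at the same coordinates. The strand setting of the counting is not stated.

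The counts were tested with edgeR 4.0.16 (R 4.3.3): TMM scaling, filterByExpr on genotype, a robust quasi-likelihood fit of all 24 libraries with a mean per genotype and a sex term, and Benjamini-Hochberg adjustment over 19667 genes, called under 0.05. The error of a log2 fold change is its size over the root of the F statistic, and 95% intervals are 1.96 such errors. CPM values are TMM-scaled. The labels carry genotype and sex but no replicate numbers, so the numbers used here only name libraries. Each library is an animal by its label. No 2 libraries of a genotype agreed within sampling noise: 60 pairs gave a chi-square per gene between 6.89 and 42.6 on average. Correlations used 100000 permutations (scipy 1.17.1, 2-sided), for which 1e-05 is the smallest p, and adjustment over 7 pairs or 9 relations. The fits were tested on simulated counts, with known changes given to genes drawn from all those tested. At a log2 change of 0.5 in size, 43% of the changed genes were called in Q175 against WT and 55% in carriers. At a change of 1 the shares were 67% and 76%. Many real differences of the size seen for the markers would therefore be missed. Alternatives used DESeq2 1.42.0, limma-voom (limma 3.58.1), other scaling and filters, other covariates, each sex alone, and 1 library left out.

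The 9 markers, the companion lists and the tests were chosen with earlier results of these data known, so none of them is independent of the data. The rule for naming genes took all 9 markers, Tyrobp and Htt, from each list the genes called in Q175 carriers (at most 6, by smallest p) or the 2 of smallest p where fewer were called, and for Sst, Chat, Pvalb and Th the 3 most correlated genes. Of the projection neuron genes 2 examples are given, and of the choroid plexus genes the sums. Genes called with the cortical term alone, Sstr4, and genes at 0 or near it were named after their values were seen. Some genes that the rule or the lists hold are not reported here.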

Additional observations from a re-analysis of the deposited data

Results flagged for a closer look

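In 36 groups of 6 libraries (9 markers in 4 genotypes), the highest or lowest library was compared with its nearest neighbour, and 4 groups had a gap above Dixon's 95% critical share of the whole range. Chance alone marks about 1 in 20 groups. Npy was 19.8 CPM in TyrobpKO replicate 6, against 28.1 CPM in the nearest library. Nos1 was 65.7 CPM in WT replicate 5, against 83.5 CPM in the nearest. Pvalb was 70.8 CPM in the same WT replicate 5, against 29.6 CPM in the nearest, and that library had the highest cortical sum of the WT group, 811 CPM. Pthlh was 3.84 CPM in TyrobpKO replicate 4, against 5.16 CPM in the nearest.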

How the results depend on the processing

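No paired analysis was possible because the labels carry no replicate numbers, and the numbers used here only name libraries. Among single-marker values, 327 kept direction and side of the threshold under other settings, 15 reversed, 7 gained and 3 lost the call, and with 1 library left out 758 kept both, 18 reversed, 10 gained and 6 lost the call. The cause of these changes was not tested. Fits of 1 sex also held fewer samples, and sample number and sex were not separated there.

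DESeq2 called 52 genes in Q175_TyrobpKO against Q175 (31 in edgeR), 82 for the deletion averaged (41) and 2 for the interaction (0). In carriers DESeq2, limma-voom and upper-quartile scaling called 1 marker, Sst. With the cortical genes as a term, 2 markers and 2665 genes were called in Q175 against WT, 3 markers and 4268 genes in carriers, and 2 genes in the interaction. In males alone 759 genes were called in Q175 against WT (1893), 104 in Q175_TyrobpKO against TyrobpKO (1153), 65 in TyrobpKO against WT (23), 11 in Q175_TyrobpKO against Q175 and 1242 in carriers (3544). In females alone the same counts were 187, 290, 8, 11 and 1195, with 19 for the deletion averaged. The marker count in Q175 against WT was 0 in males, 0 in females and 0 in the fit of the 12 libraries compared.

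Pvalb in Q175 against WT was 0.0701 in limma-voom, 0.0189 with the cortical term and 0.31 in males, where Th was 0.18. Males in Q175_TyrobpKO against TyrobpKO had 0.15 for Nos1, 0.24 for Chat, 0.27 for Slc5a7, 0.26 for Slc18a3 and 0.0740 for Th, and in carriers 0.0089 for Nos1, 0.0701 for Chat, 0.0761 for Slc5a7 and 0.13 for Th. Females had 0.41 for Pvalb in Q175_TyrobpKO against TyrobpKO and 0.0471 in carriers. With 1 library left out, Q175 against WT ran from −0.13 to 0.33 for Pvalb and −0.20 to 0.0533 for Th, with 0 to 2 markers called. Q175_TyrobpKO against TyrobpKO ran from −0.16 to 0.0276 for Slc5a7, −0.15 to 0.0603 for Slc18a3, −0.35 to 0.0188 for Pvalb, −0.13 to 0.0134 for Pthlh and −0.27 to 0.0239 for Th. In carriers Pvalb ran from −0.19 to 0.0857, with 0 to 2 markers called, and the interaction had 0 to 2 genes. Npy and Nos1 had r = −0.569 as deviations from genotype means, past the threshold that −0.424 missed. Pvalb and the cortical mean had r = 0.477 without the 2 farthest libraries, an alternative added after seeing the data. Reads limit Th and Pthlh most, each with 83 reads in its lowest library.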
